A study of Homo sapiens with 6 samples.

Results

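The 9 genes described here encode complement factors and their regulators (CFB, C1R, C1S, C3, SERPING1, CFI, CD46, CD55 and CD59), out of 62696 genes counted in DMS53 cells. They were chosen with earlier results of these same libraries in view, so their differences between the groups are given as a description and without a test. DMS53 is a small cell lung cancer (SCLC) cell line of neuroendocrine (NE) type, and the RNA-Seq libraries addressed what the ONECUT2 transcription factor (OC2) does to its gene expression. The control group held 3 libraries of cells transduced with the empty lentiviral vector pLenti-C-mGFP-P2A-Puro, and the OC2-OE group held 3 libraries of cells transduced with a lentiviral ORF clone of ONECUT2 tagged with mGFP. Both groups were grown in RPMI-1640 with fetal bovine serum and selected with puromycin, and both vectors carry mGFP. OC2 expression was constitutive and well above the cells' own level, and the sources used here do not state whether the transduced populations were clonal. The study describes the libraries of each condition as independent experiments. Between 2 libraries of the OC2-OE group, the squared difference in counts averaged 1.32 to 1.45 times that of counting error. In the control group it averaged 1.59 to 2.08 times. The standard errors and p-values below measure spread between such libraries.

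Complement is a cascade of plasma proteases and their substrates that marks cells and microbes for uptake and lysis. The classical pathway starts when C1q activates the proteases C1r and C1s, the alternative pathway amplifies on surfaces through factor B and C3, and both lead to a C5-dependent membrane attack complex. Nucleated cells, tumor cells included, hold the cascade in check with membrane proteins such as CD46, CD55 and CD59, while C1 inhibitor (SERPING1) and factor I (CFI) act in the fluid phase. The liver makes most circulating complement, and epithelial cells make some of it locally.

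The libraries held between 16533284 and 19099337 counts. ONECUT2 RNA averaged 24.6 CPM (counts relative to library size, scaled with TMM factors) in control and 3944 CPM in OC2-OE cells, and the values of the groups did not overlap. All 8 NE markers were detected, with a summed level of 2769 to 2792 CPM in control and 2307 to 2338 CPM in OC2-OE cells. Single NE markers differed more than this sum, in which UCHL1 was the largest term and was higher (1077 to 1430 CPM). In all, 5 of the 8 were lower, among them DDC (502.7 to 87.3 CPM) and GRP (132.3 to 6.24 CPM). The 2 that were higher were UCHL1 and CHGA (72.25 to 150.1 CPM). These genes were named after their values were seen. Markers of other cell types also differed between the groups. The summed level of 8 hepatocyte markers was 27.6 to 28.2 CPM in control and 56.7 to 61.6 CPM in OC2-OE cells. Of that sum SERPINA1 made up most and was higher (16.5 to 49.8 CPM), and TTR was lower (4.23 to 0.646 CPM). For 9 markers of macrophages and other blood cells it was 4.28 to 5.02 CPM and 8.48 to 9.77 CPM. Of these 9, only 2 had enough counts to be tested. CD14 (3.6 to 5.855 CPM) and LYZ (0.401 to 2.22 CPM) were both higher. LYZ had enough counts only in the OC2-OE libraries (21 and 122 summed counts), so its direction carries no weight. Of those not tested, CSF1R had 15 summed counts in control and 7 in OC2-OE cells, and CD163 had 11 and 37. AIF1 and CD3E were at 0 counts in every library. For 7 fibroblast markers the summed level was 22.5 to 25.4 CPM and 28.5 to 32.4 CPM, and for 5 endothelial markers 12.7 to 15.1 CPM and 4.17 to 4.73 CPM. The part of other cells in the levels below was not tested. In bulk RNA, fewer cells of a type and less RNA per cell cannot be told apart.

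Of all 17307 genes tested, 56.5% passed an adjusted p threshold of 0.001 in either direction, 27.8% with a higher and 28.7% with a lower level in OC2-OE cells. Among the 9 complement members 7 had enough counts to be tested, and 7 of 7 had a higher level in OC2-OE cells. Nothing is read from that count, since the members were chosen on this contrast. C3 and CFI had too few counts to be tested. The differences among the members ranged from a log2 fold change (OC2-OE against control) of 0.10 for CD46 to a lower bound of 8.10 for CFB.

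The promoter windows of 3 members are shown because CFB had the largest difference, and C1R and CD55 the larger differences among the C1 proteases and the membrane regulators. Each runs from 250 bases before to 50 bases after an annotated start, taken from RefSeq on GRCh38.p14 and written 5′ to 3′ on the gene's strand. Capitals mark matches to the motifs searched on both strands.
CFB promoter, chr6:31945845-31946144, plus strand: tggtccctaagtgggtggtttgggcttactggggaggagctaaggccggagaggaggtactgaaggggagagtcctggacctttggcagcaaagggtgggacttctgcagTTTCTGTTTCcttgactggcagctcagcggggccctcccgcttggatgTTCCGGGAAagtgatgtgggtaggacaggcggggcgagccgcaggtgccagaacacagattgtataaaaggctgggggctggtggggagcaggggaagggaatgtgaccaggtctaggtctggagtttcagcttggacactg
C1R promoter, second annotated start, chr12:7091844-7092143, minus strand: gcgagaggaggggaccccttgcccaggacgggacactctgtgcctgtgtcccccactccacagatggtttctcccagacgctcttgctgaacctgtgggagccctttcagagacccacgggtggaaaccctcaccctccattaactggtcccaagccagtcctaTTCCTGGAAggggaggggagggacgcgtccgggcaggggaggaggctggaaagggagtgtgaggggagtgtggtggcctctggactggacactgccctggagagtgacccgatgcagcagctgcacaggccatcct
CD55 promoter, chr1:207321428-207321727, plus strand: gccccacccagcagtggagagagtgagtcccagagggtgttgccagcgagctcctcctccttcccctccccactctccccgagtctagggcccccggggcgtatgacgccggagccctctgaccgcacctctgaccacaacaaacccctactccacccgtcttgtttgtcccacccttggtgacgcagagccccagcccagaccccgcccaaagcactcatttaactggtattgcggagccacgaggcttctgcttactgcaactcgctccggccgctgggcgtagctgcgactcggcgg

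The motifs were the gamma-activated sequence (GAS, TTCNNNGAA), the interferon-stimulated response element (ISRE, GAAA, any 2 bases, GAAA), the NF-kB consensus, and ATTGAT or ATCGAT, letters that ONECUT factors are known to bind. Windows were found for 6 of the 9 members, 11 windows in all, and C1S, C3 and SERPING1 had no entry. The CFB window held an ISRE match on the opposite strand from -140 to -131 and a GAS match from -92 to -84, counted in bases from the start. The C1R window held a GAS match from -86 to -78, and the window of its other start held no match. CD59 had a GAS match from -128 to -120 in the first of its 4 windows, which the overlapping second window also holds. The windows of CD55, CD46 and CFI held none of the motifs. A GAS match was found in 7.66% of 35116 promoter windows, an ISRE match in 3.57%, an NF-kB match in 5.91%, ATTGAT in 6.26% and ATCGAT in 0.763%. A match describes letters in a window, not a bound site.

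Within the alternative pathway, CFB encodes factor B, the serine protease of the C3 convertase. The gene (ENSG00000243649.10) lies on chromosome 6 from 31945650 to 31952086, plus strand. CFB had 0 counts in each of the 3 control libraries and 293, 291 and 290 counts in OC2-OE libraries 1, 2 and 3. The OC2-OE libraries were alike, at 15.3, 16.8 and 15.9 CPM (16 ± 0.756, SD, n = 3), and the groups did not overlap. Against a floor of 3 counts over the 3 control libraries, CFB was at least 275-fold higher in OC2-OE cells, which covers counting error only. CFB shares 42.3% of its exon bases, and 78.6% of its principal transcript in 17 of 18 exons, with an overlapping readthrough gene (ENSG00000244255, 0 counts in every library) and with C2 on the same strand. Read pairs that fit more than 1 gene were left out by the authors' counting, so the CFB counts come from the bases it does not share and understate its level.

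C3 encodes the central component on which all complement pathways converge. The gene (ENSG00000125730.18) lies on chromosome 19 from 6677704 to 6730562, minus strand. C3 had 0, 0 and 1 counts in control libraries and 0, 1 and 0 counts in OC2-OE libraries. C3 RNA was therefore not detectable above a floor of 3 counts per group, equal to 0.0581 CPM in control and 0.0548 CPM in OC2-OE cells, and no fold change is given. Although 11.7% of the C3 exon bases lie in an overlapping gene (ENSG00000276980), its principal transcript shares 0 bases with it. Factor B RNA was thus present in OC2-OE libraries in which C3 RNA was at the floor.

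CFI encodes factor I, the protease that cleaves C3b and C4b together with cofactors such as CD46. The gene (ENSG00000205403.15) lies on chromosome 4 from 109731008 to 109802150, minus strand. CFI had 1, 0 and 0 counts in control libraries and 0 counts in every OC2-OE library. An overlapping readthrough gene (ENSG00000285330, 0 counts in every library) shares 72.3% of the principal CFI transcript, in 12 of 13 exons. The low CFI count hence describes the unshared bases only.

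C1R and C1S encode the proteases of the C1 complex, C1r cleaving C1s and C1s cleaving C4 and C2. Both genes lie on chromosome 12, C1R (ENSG00000159403.18) from 7080214 to 7092540 on the minus strand and C1S (ENSG00000182326.17) from 6988259 to 7071032 on the plus strand. C1R was at 1.77, 1.97 and 1.97 CPM in control libraries and at 8.04, 8.31 and 8.40 CPM in OC2-OE libraries. The groups were tight and well apart, with means of 1.90 ± 0.118 and 8.25 ± 0.189 CPM (SD, n = 3) and a log2 fold change of 2.12 (SE 0.158). C1R shares 11.6% of its exon bases, and 25.3% of its principal transcript in 4 exons, with C1RL, so its counts and its ratio to C1S also rest on the bases it does not share.

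C1S differed less than C1R. C1S was at 2.35, 2.87 and 2.09 CPM in control libraries and at 4.64, 3.87 and 3.84 CPM in OC2-OE libraries. Every OC2-OE library was above every control library, with a log2 fold change of 0.76 (SE 0.180), and the spread within the groups was wider than for C1R. The counts behind it were 44, 48 and 34 in control and 89, 67 and 70 in OC2-OE libraries. The log2 fold change of C1S was 0.66 without control replicate 3 and 0.67 without OC2-OE replicate 1. An overlapping gene on the same strand, ENSG00000290146, had 29, 28 and 15 counts in control and 17, 17 and 21 counts in OC2-OE libraries. With its counts added to those of C1S the log2 fold change was 0.42.

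On a scale corrected for gene length (TPM), C1R and C1S overlapped in control cells. The ratio of C1R to C1S was 1.07, 0.983 and 1.35 in control libraries and 2.47, 3.07 and 3.12 in OC2-OE libraries. The ratios of the groups did not overlap, and C1R was the more abundant of the pair in each OC2-OE library.

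SERPING1 encodes C1 inhibitor, a serpin that inactivates C1r and C1s and also restrains plasma kallikrein and factor XII. The gene (ENSG00000149131.17) lies on chromosome 11 from 57597387 to 57619171, plus strand, and no annotated gene shared its exons on its strand. SERPING1 had 5, 1 and 2 counts in control libraries and 37, 40 and 29 counts in OC2-OE libraries. These were 0.268, 0.0598 and 0.123 CPM against 1.93, 2.31 and 1.59 CPM, so the gene was near the detection floor in control cells and low but present in every OC2-OE library. The log2 fold change was 3.59 (SE 0.418), a fold of 12.04. Control replicate 1 held most of the control counts, and without it the log2 fold change was 4.31.

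**Figure D1:**
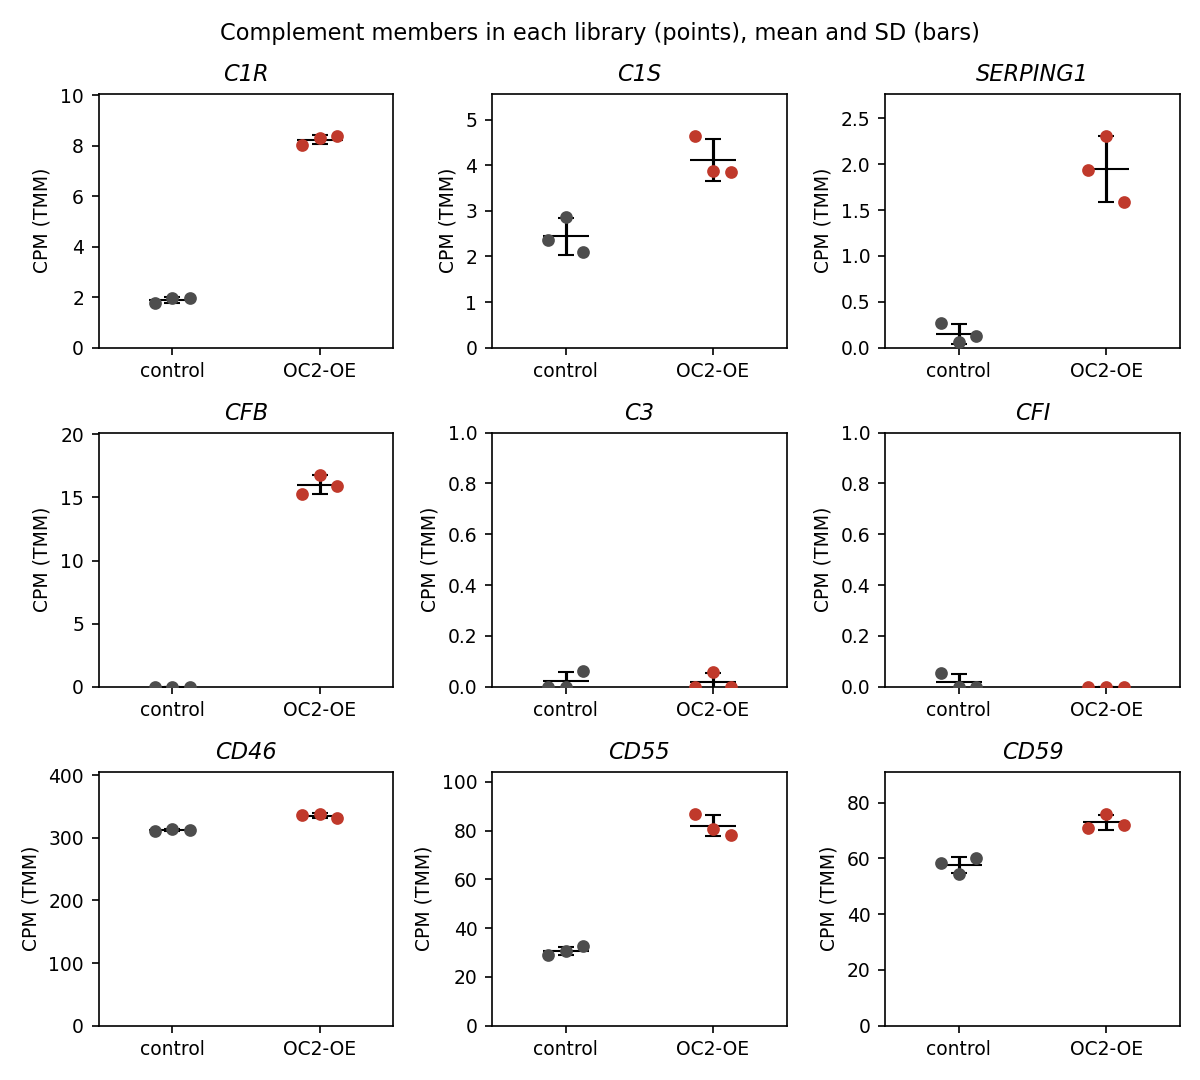
Level of each member in each library in CPM with TMM scaling (vertical axes start at 0 and differ between panels), with control in grey and OC2-OE in red, points for libraries, and bars for the mean and SD of 3 libraries. CFB was at 0 in control and at 15.3 to 16.8 CPM in OC2-OE libraries, C3 and CFI were at or near 0 in both groups, and CD46 differed by the smallest proportion among the 7 members tested.

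CD55, also called decay-accelerating factor, is a GPI-anchored protein that dissociates the C3 and C5 convertases. The gene (ENSG00000196352.18) lies on chromosome 1 from 207321519 to 207386804, plus strand. CD55 was at 29.1, 30.5 and 32.5 CPM in control libraries and at 86.8, 80.8 and 78.3 CPM in OC2-OE libraries. All 3 OC2-OE libraries lay far above the control libraries relative to the spread within groups. The means were 30.7 ± 1.72 and 82.0 ± 4.38 CPM (SD, n = 3), and the log2 fold change was 1.42 (SE 0.0493). No other gene shared exon bases with CD55 on its strand.

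CD59, or protectin, is a GPI-anchored inhibitor of the membrane attack complex. The gene (ENSG00000085063.17) lies on chromosome 11 from 33703010 to 33736479, minus strand. CD59 was at 58.2, 54.6 and 60.1 CPM in control libraries and at 70.9, 76.0 and 71.8 CPM in OC2-OE libraries. The groups did not overlap, and the difference was modest, with a log2 fold change of 0.34 (SE 0.0438). CD59 shares 5.96% of its exon bases, and 8.19% of its principal transcript, with ENSG00000284969, which had at most 1 count in each library.

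CD46, or membrane cofactor protein, is the transmembrane cofactor with which factor I cleaves C3b and C4b. The gene (ENSG00000117335.21) lies on chromosome 1 from 207752037 to 207795513, plus strand. CD46 was at 312, 314 and 313 CPM in control libraries and at 337, 338 and 331 CPM in OC2-OE libraries. The groups did not overlap because the spread was small, and the log2 fold change was 0.10 (SE 0.0241), a fold of 1.07.

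The 3 membrane regulators had the highest TPM among the members as counted. TPM divides by all exon bases, shared ones included, so the TPM of CFB is too low by an amount that was not estimated, and its place relative to CD55 and CD59 in OC2-OE cells is not settled. In control cells the mean TPM was 82.2 ± 0.367 for CD46, 22.3 ± 1.19 for CD59 and 12.2 ± 0.719 for CD55 (SD, n = 3), and the libraries of these genes did not overlap. C1R (1.34 ± 0.0833 TPM) and C1S (1.198 ± 0.189 TPM) came next and overlapped each other in control cells. SERPING1 (0.0847 TPM), CFI (0.0137 TPM) and C3 (0.00726 TPM) each overlapped the next member in the order, and CFB was at 0. In OC2-OE cells the order was CD46 (90.7 ± 1.02 TPM), CD55 (33.5 ± 1.79), CD59 (28.95 ± 1.08), CFB (12.6 ± 0.598), C1R (5.96 ± 0.136), C1S (2.08 ± 0.231) and SERPING1 (1.13 ± 0.208), all in mean TPM ± SD, with no overlap between neighbours down to SERPING1. The order of CD55 and CD59 depended on the length used. With all exon bases CD55 was below CD59 in every control library, whereas with the principal transcript, a length chosen after seeing the data (2892 bases for CD55 and 7631 for CD59), CD55 was above CD59 in both groups, at a mean ratio of 1.41 ± 0.0807 in control and 2.97 ± 0.227 in OC2-OE cells (SD, n = 3).

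The summed level of CD46, CD55 and CD59 was 116, 115 and 119 TPM in control libraries and 155, 155 and 150 TPM in OC2-OE libraries. The share of CD55 in this sum was 9.98%, 10.5% and 10.9% in control and 22.9%, 21.4% and 21.3% in OC2-OE libraries. CD46 held 69.5% to 71.3% of the sum in control and 58.9% to 59.7% in OC2-OE libraries, and the share of CD59 overlapped between the groups, at 18.2% to 19.6% and 18.2% to 19.5%. With the principal transcript lengths the mean share of CD59 was 6.65% in control and 6.81% in OC2-OE cells, and that of CD55 9.36% and 20.2%.

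**Figure D2:**
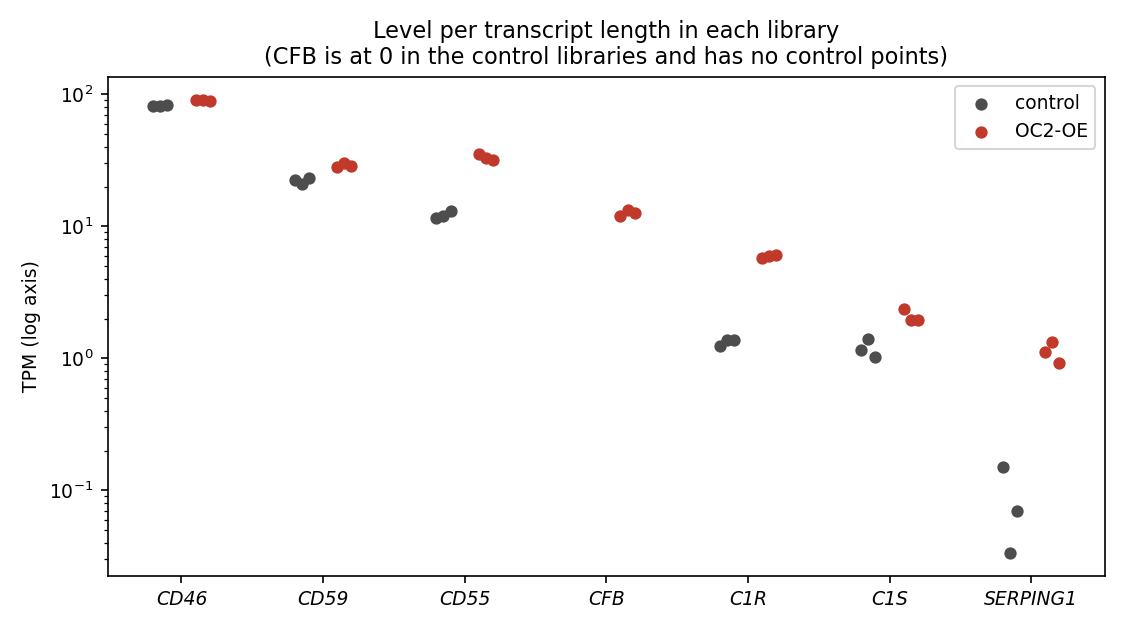
Level per gene length of the 7 members with enough counts to be tested, in TPM on a log axis, with a point for each control (grey) and OC2-OE (red) library. CD46 stays on top in both groups, CD55 lies below CD59 in control and above it in OC2-OE libraries with the length of all exon bases used here (with the principal transcript it lies above in both), and CFB has points in OC2-OE only because its control level was 0.

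CD55 and CD46 lie in a cluster of complement regulator genes on chromosome 1, all on the plus strand. Counted from the start of CD55, the cluster ran from C4BPB at -232.7 kb to CD46 at 430.5 kb, and its genes differed from one another in their fold changes. C4BPA, the alpha chain of the fluid-phase C4b-binding protein, rose from 0.214, 0.119 and 0.184 CPM in control to 1.62, 2.02 and 2.14 CPM in OC2-OE libraries (log2 fold change 3.41, SE 0.405, adjusted p = 4.04e-13), on 9 and 105 summed counts. CR2, the receptor for C3d on B cells, rose from 10.6, 10.3 and 10.2 CPM to 30.11, 30.01 and 29.75 CPM (log2 fold change 1.53, SE 0.0768, adjusted p = 3.5e-38). C4BPB, the beta chain, had a log2 fold change of -0.59 (SE 0.359, adjusted p = 0.133) on 50 and 35 summed counts. CR1 and CR1L, between CR2 and CD46, had 8 and 7 counts over the control libraries and 0 over the OC2-OE libraries, too few to test. The genes with the larger differences in this cluster were thus C4BPA, CD55 and CR2, and CD46 at its far end had a log2 fold change of 0.10.

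**Figure D3:**
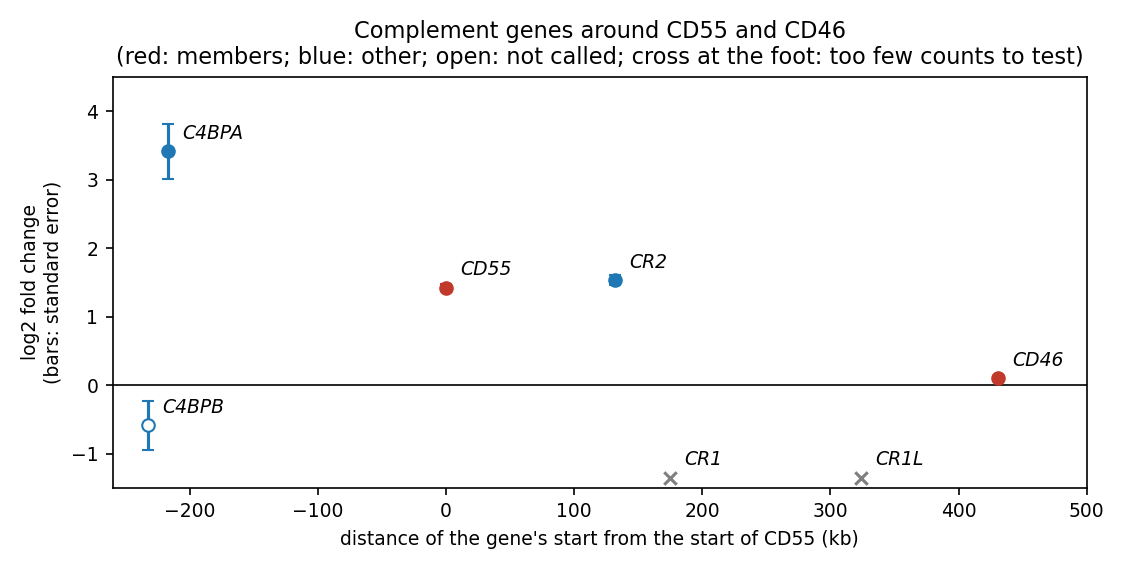
Log2 fold change (OC2-OE against control, bars for the standard error) of the complement regulator genes on chromosome 1, by the distance in kb of each gene's start from the start of CD55, with members in red and other genes in blue. C4BPA, CD55 and CR2 lie between 1.42 and 3.41, CD46 lies at 0.10, and CR1 and CR1L are crosses at the foot because they had too few counts to test.

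Over all members, CD55 and CD46 included, 15 neighbouring genes were tested, of which 10 were higher, 2 lower and 3 did not pass the threshold. For scale, a higher level passed for 27.8% of the 17307 genes and a lower level for 28.7%. C4BPA and CR2, given above, are among the neighbours. Together with C1RL and C2 they are counted again among the other complement genes below. C4BPA and YPEL4 (5 and 34 summed counts) had enough counts only in OC2-OE cells. Whether neighbours of members differed more often than other genes was not tested. C1RL, which encodes a C1r-like protease and lies beside and partly over C1R, rose from 14.3 ± 1.55 to 48.2 ± 4.45 CPM (SD, n = 3; log2 fold change 1.76, SE 0.0686, adjusted p = 5.98e-40 by edgeR). LPCAT3, a lysophospholipid acyltransferase gene beside C1S, rose by a log2 fold change of 0.99. UBE2L6, the conjugating enzyme for the interferon-induced modifier ISG15 and the nearest tested gene before SERPING1, rose by 1.30, and YPEL4 after it by 2.60. MIR29B2CHG, a miRNA host gene after CD46, rose by 1.94. Next to CFB, C2, which overlaps its start, had a log2 fold change of 1.18 that did not pass, and NELFE fell by 0.20 on the log2 scale. Around CD59, FBXO3 rose by 0.26 and HIPK3 fell by 0.23 on the log2 scale. Next to CFI, PLA2G12A rose by 0.31 and GAR1 was at -0.02, and next to C3, GPR108 rose by 0.70 while ENSG00000275234 was at 0.13. HIPK3, GPR108 and YPEL4 missed the threshold under some alternatives.

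Beyond the 9 members, 53 other complement genes were listed, of which 18 had enough counts to be tested. Of these, 10 were higher, 4 lower and 4 did not pass the threshold, beside 27.8% higher and 28.7% lower over all genes tested. The median log2 fold change was 0.87 against 0.01 over all genes tested. The list was drawn up with earlier results of these data known. Some of its genes, such as C4BPA (9 and 105 summed counts), had enough counts only in OC2-OE cells. The counts and the median are therefore a description only. Of the 35 that were not tested, 11 had 0 counts in every library, among them the 3 chains of C1q (C1QA, C1QB and C1QC), MBL2 and the ficolins FCN1, FCN2 and FCN3. The C1 proteases were thus counted in libraries with no C1q counts.

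Among the activation genes, 2 of 4 tested genes of the classical and lectin pathways were higher, C1RL (above) and COLEC10. COLEC10, a collectin that recognizes sugars, rose from 6.64, 5.44 and 7.07 CPM to 10.1, 12.4 and 9.88 CPM (log2 fold change 0.75, adjusted p = 3.93e-09). COLEC11, its partner collectin, fell from 2.41, 2.51 and 2.52 CPM to 0.626, 1.15 and 1.59 CPM (log2 fold change -1.15, adjusted p = 3.09e-05). COLEC11 missed the threshold with DESeq2's Wald test and without OC2-OE replicate 1, where its log2 fold change was -0.84. C2, the protease that C1s cleaves, had 11, 10 and 6 counts in control and 20, 22 and 23 counts in OC2-OE libraries (log2 fold change 1.18, adjusted p = 0.00194) and did not pass. MASP1 and MASP2, the lectin pathway proteases, had summed counts of 14 and 26 in control and 27 and 20 in OC2-OE cells and were not tested. C4A and C4B, near-identical copies whose reads cannot be told apart with certainty, had between 0 and 6 counts in each library.

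In the alternative pathway, CFD encodes factor D, the protease that cleaves factor B. CFD rose from 1.93, 1.85 and 1.78 CPM to 3.81, 3.98 and 3.35 CPM (log2 fold change 1.00, SE 0.197, adjusted p = 3.64e-06). CFP, encoding properdin, which stabilizes the convertase, had 4, 4 and 5 counts in control and 14, 3 and 9 counts in OC2-OE libraries and was not tested.

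Of the terminal pathway, 2 of 3 tested genes were higher. C5, whose cleavage starts the membrane attack complex, rose from 113, 110 and 107 CPM to 222, 213 and 217 CPM (log2 fold change 0.98, SE 0.0307, adjusted p = 9.99e-58). C8A, the alpha chain of C8, rose from 4.496, 4.303 and 3.94 CPM to 20.4, 22.7 and 20.9 CPM (log2 fold change 2.32, SE 0.103, adjusted p = 6.45e-43). C8G, the gamma chain, had a log2 fold change of -0.58 (adjusted p = 0.0255), and C6, C7, C8B and C9 had between 0 and 3 counts in each library.

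Of the soluble regulators, 3 of 4 tested genes were higher, with C4BPA given above. CLU, encoding clusterin, a chaperone that also binds the membrane attack complex, rose from 97.4, 100.3 and 95.8 CPM to 338, 348 and 353 CPM (log2 fold change 1.82, SE 0.0291, adjusted p = 5.36e-89). VTN, encoding vitronectin, another inhibitor of the terminal complex, rose from 1.23, 1.91 and 1.29 CPM to 6.37, 4.91 and 5.71 CPM (log2 fold change 1.94, adjusted p = 2.46e-17). CPN1, a carboxypeptidase chain that inactivates anaphylatoxins, had 21 counts over the control and 10 over the OC2-OE libraries and was not tested.

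The other membrane regulators went in both directions. CSMD2 and CSMD3, large transmembrane proteins with complement control repeats, fell from 12.4, 11.5 and 14.4 CPM to 2.61, 2.83 and 2.80 CPM and from 4.39, 4.12 and 4.55 CPM to 1.51, 1.27 and 1.37 CPM (log2 fold changes -2.22 and -1.64, adjusted p = 4.93e-32 and 1.76e-12). SUSD4, which also carries such repeats, rose from 9.58, 9.68 and 9.35 CPM to 13.8, 13.4 and 14.98 CPM (log2 fold change 0.56, adjusted p = 6.63e-08). Of the receptors, CR2 rose (above), C1QBP, a mitochondrial protein first described as binding C1q, fell by 0.17 on the log2 scale (adjusted p = 4.62e-06), and C5AR1 had a log2 fold change of 0.62 (adjusted p = 0.0702). C1QBP missed the threshold with library-size scaling alone, at -0.12.

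**Figure D4:**
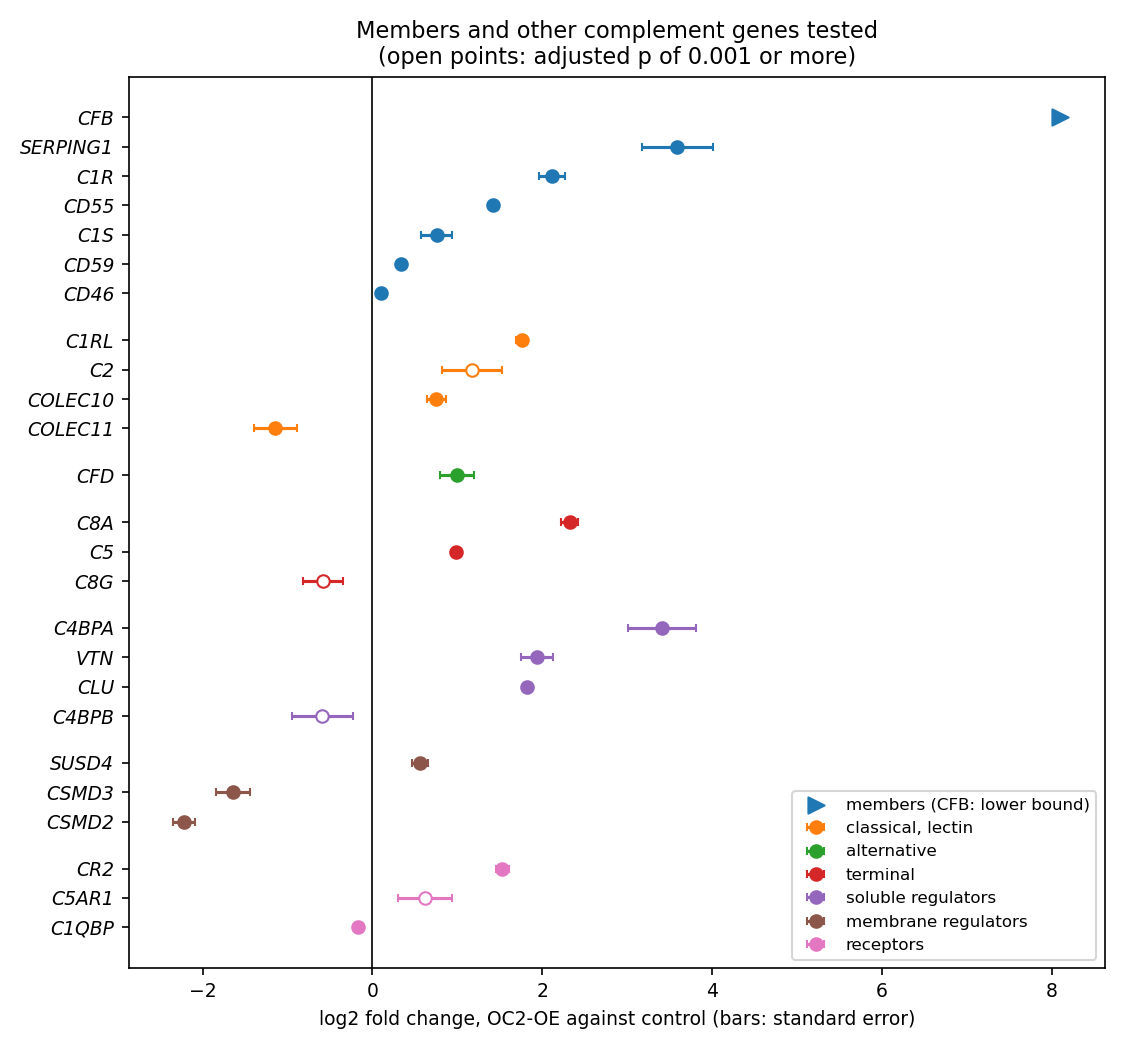
Log2 fold change (OC2-OE against control, bars for the standard error) of the 7 members and the 18 other complement genes that were tested, in colours by role, with open points for genes that did not pass the adjusted p threshold of 0.001 and a triangle at the lower bound of 8.10 for CFB. C4BPA, C8A, VTN, CLU and C1RL lie highest among the other genes, from 1.76 to 3.41, and CSMD2, CSMD3 and COLEC11 lie lowest, from -2.22 to -1.15.

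CD55 and CD59 are held on the membrane by a GPI anchor, whose assembly takes a known set of enzymes. Of 28 genes of GPI-anchor synthesis, 27 were tested, and 14 were higher and 5 lower, beside 27.8% and 28.7% over all genes tested. Their median log2 fold change was 0.25. The differences were small. PIGV, a mannosyltransferase, rose from 10.49, 11 and 11.01 CPM to 20.4, 18.7 and 20.9 CPM (log2 fold change 0.89, adjusted p = 8.18e-18). PGAP3, which remodels the lipid of the finished anchor, rose by 0.79 (adjusted p = 7.46e-24), and GPAA1 and PIGS, subunits of the transamidase that attaches it, rose by 0.63 and 0.59 (adjusted p = 4.02e-37 and 6.35e-31). CD46 is not anchored in this way.

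C1 inhibitor also restrains proteases outside complement, and 3 of 6 such targets or partners were tested. F12, the contact-phase factor XII, rose by a log2 fold change of 0.47 (adjusted p = 3.88e-08) and PLAU, urokinase, by 0.64 (adjusted p = 1.5e-20). PLAT, tissue plasminogen activator, was at 0.910, 1.14 and 1.17 CPM in control and 0.417, 0.519 and 0.494 CPM in OC2-OE libraries and did not pass the threshold (log2 fold change -1.15, adjusted p = 0.00353).

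Complement genes of the acute phase are known to respond to interferon, interleukin-6 and NF-kB signals in liver and epithelial cells. Of 11 transcription factors known to act on such genes, all were tested, 6 were higher and 1 lower. Their median log2 fold change was 0.16. Among the 17307 genes of the whole fit, 27.8% passed as higher and 28.7% as lower. The factors were listed with earlier results of these data known, so their count is a description only. CEBPB, an acute-phase factor, rose from 21.1, 26.6 and 27.1 CPM to 67.7, 72.8 and 76.7 CPM (log2 fold change 1.54, adjusted p = 3.22e-29). STAT2, part of the complex that binds the ISRE, rose from 55.3, 49.1 and 53.5 CPM to 138, 132 and 138 CPM (log2 fold change 1.37, adjusted p = 1.41e-61). IRF1, an interferon-induced factor, rose from 29.1, 31.8 and 30.3 CPM to 72.8, 66.7 and 67.4 CPM (log2 fold change 1.18, adjusted p = 2.84e-44). STAT3, which binds the GAS, differed less, with a log2 fold change of 0.16 (adjusted p = 2.64e-08), and the liver factor HNF4A rose by 0.37 (adjusted p = 2.79e-11). IRF9, NFKB1, RELA and CEBPD did not pass the threshold, with log2 fold changes of -0.05, 0.10, 0.11 and -0.07. RELA did pass as higher with library size only (0.17) and under 3 other alternatives. Whether any of these factors acts on the members was not tested.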

How the data were processed

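Poly(A) RNA of 3 control and 3 OC2-OE DMS53 samples was sequenced with a stranded kit. Per the submitters' processing notes, STAR version 2.7.9a and featureCounts version 1.6.0 were used on GRCh38. The deposited values are the authors' raw counts of read pairs per gene of GENCODE release 42, counted by strand, without normalization, and by the file headers' options pairs that fit several genes were left out.

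Counts were scaled with TMM factors and tested in R version 4.3.3 with the quasi-likelihood test of edgeR version 4.0.16 for 17307 genes kept by filterByExpr, without a replicate term, and p-values were adjusted by Benjamini-Hochberg over all of them. The threshold was 0.001. TPM used the summed exon length of each gene. Limma version 3.58.1 (voom) and DESeq2 version 1.42.0 served as alternatives. The fit was tested on simulated counts in which far fewer genes changed than passed here, so scaling under broad change was not tested.

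The members and gene lists were chosen with earlier results of these data known. Genes named are the members, ONECUT2, other complement genes that passed or had 30 or more counts in all, the 4 GPI genes with the largest change, all tested C1 inhibitor targets and transcription factors, and neighbouring or overlapping genes. Complement genes with fewer counts are named only with their counts, outside this rule and after their values were seen. Single cell markers were likewise named outside it, after their values were seen. In all, 2 transcription factors are not reported here by name. Neighbours are the nearest tested genes on each side, by the gap between genes. Alternatives were other scalings, filters and thresholds, ONECUT2 left out, overlapping genes added to members, each library left out in turn, and a replicate block. Standard errors were derived from the log2 fold change and its F statistic.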

Additional observations from a re-analysis of the deposited data

How the results depend on the processing

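Across the refits at the 0.001 threshold, 703 of 728 values of named genes other than the members kept their direction and their side of the threshold. Of the rest, 15 (of C1QBP, COLEC11, GPR108, HIPK3 and YPEL4) missed the threshold, 4 passed it, all of RELA (log2 fold changes of 0.12 to 0.17), and 6 reversed. The reversed values were of genes that did not pass the threshold. The log2 fold change of GAR1 was 0.0264 with library size only and 0.0185 with upper-quartile scaling, and -0.0655 to 0.0467 with a library left out. The log2 fold change of IRF9 was -0.1117 to 0.0464 and the log2 fold change of CEBPD was -0.1181 to 0.0173 with a library left out. The cause was not tested. With a limit of 1 on the size of the log2 difference, 4 members, 6 other complement genes, 3 transcription factors and 6 neighbours were higher, as were 0 GPI-anchor genes and 0 C1 inhibitor targets, and 0 GPI-anchor genes, 0 transcription factors and 0 neighbours were lower. Lower calls numbered 3 GPI-anchor genes and 1 neighbour with library size only, 1 neighbour with upper-quartile scaling, 1 neighbour with DESeq2's Wald test, and 1 C1 inhibitor target at a threshold of 0.05.

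Leaving out 1 library at a time gave 3 to 5 GPI-anchor genes lower and 1 to 2 neighbours lower, and 2 to 4 neighbouring pairs in the control order per length that overlapped. The count of 7 members past the threshold, from which nothing is read, was 6 with DESeq2's Wald test, without control replicate 3 and without OC2-OE replicate 1, each time for C1S, and without OC2-OE replicate 2, for CD46, and 6 again with overlapping genes added, for C1S. It was 5 where every library had to hold at least 10 counts, since CFB and SERPING1 were then not tested. With a library left out, the lower bound for CFB ranged from 7.45 to 8.14 on the log2 scale, the floor covering fewer control libraries where a control library was left out. Over all genes, 9776 passed in the fit reported, 8385 with DESeq2's Wald test, 2999 with the fold limit, and 8944 to 9340 with a library left out. Same-numbered control and OC2-OE libraries had deviations correlated at 4e-04, 0.0341 and 0.0259, and differently numbered ones at -0.0298 to 0.0035. With 3 libraries per group, correlations this small cannot decide whether the numbers pair the cultures. With a replicate block 9642 genes passed. Depth limits C3, CFI and the control levels of CFB and SERPING1, and shared bases limit CFB and CFI and, to a lesser share, C1R, C1S and CD59.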
